A study of Mus musculus with 11 samples.

Results

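The members are 705 of the 19818 autosomal regions (peaks) called in 6 Xist RNA antisense purification (RAP-seq) libraries of mouse cells. They lie on distal chromosome 4, at or beyond position 138000000 of the genome build mm9. They were chosen by position: every peak of a list that starts there was taken, except peaks that touch 3 windows over the loci Igsf21 (139560000 to 139830000), Camta1 (150430000 to 151240000) and Prdm16 (153660000 to 154020000). The stretch was picked because earlier results had shown chromosome 4 to be dense in peaks, so the peak numbers and densities below are descriptions and carry no test against the genome. The member lists are female epiblast-like cells (EpiLCs) at day 4 (D4, n = 2, with 129 and 96 members), female EpiLCs at day 2 (D2, n = 2, with 182 and 182), female mouse embryonic fibroblasts (MEFs, n = 1, with 111) and male MEFs (n = 1, with 5). EpiLCs were derived from embryonic stem cells with Activin A and bFGF and stand for the epiblast of the early embryo, and no further agent was applied in any group, per the labels' protocols. The labels do not state the strain or genotype of the cells, nor that replicates were separate cultures, so the spread between replicates may be technical.

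Xist, a long noncoding RNA, starts X inactivation in female mammals, which equalises the dose of X-linked genes. It spreads over chromatin in cis, recruits the silencing protein Spen and leads to deposition of Polycomb marks. RAP-seq captures Xist with biotinylated antisense probes and sequences the DNA crosslinked to it, so a peak marks DNA recovered with the RNA and is no measure of silencing. Male cells normally do not express Xist, and the male list was used as background of the pulldown in MEFs. No male EpiLC list was analysed here, so background in EpiLCs was not measured.

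The lists held 1553 and 1148 peaks at D4, 8227 and 7544 at D2, 1020 in female and 326 in male MEFs. They give no read counts, so depth is unknown for every library, and deeper libraries usually yield more peaks. The sources used here do not say which input library served which list, and lists of both days may share an input. The lowest −log10 p was 2.80 to 2.88 in the 5 female lists and 4.57 in the male list, so weak background could be missed in male cells. Fold enrichment, −log10 p and −log10 q are the authors' values for each peak, and they serve only for description, ranking or filtering inside a list. With 1 library each, MEF values lack a replicate check.

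Distal chromosome 4 made up a larger part of the D4 and female MEF lists than of the D2 lists. Members were 8.31% and 8.36% of all peaks at D4, 2.21% and 2.41% at D2, 10.9% in female MEFs and 1.53% in male MEFs. Of the peaks on chromosome 4 alone, they were 51.0% and 47.5% at D4, 25.7% and 28.5% at D2, 52.1% in female and 21.7% in male MEFs. The merged length under members was 668 and 350 kb at D4, 2308 and 1985 kb at D2, 1361 kb in female MEFs and 5.03 kb in male MEFs. The female MEF library thus had fewer members than either D2 library and more members than D4 replicate 2, and its covered length lay between the days.

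**Figure D1:**
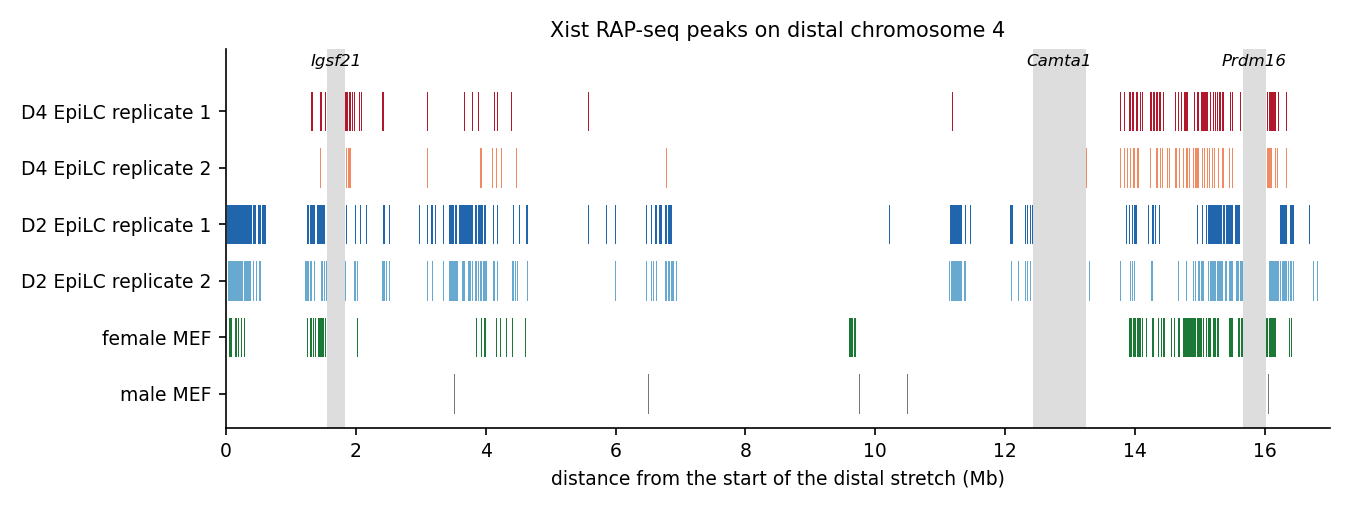
Members of the 6 lists along distal chromosome 4, with the distance from the start of the stretch in Mb on the x axis and a row for each list. Each bar is a peak drawn to scale (very short peaks are widened to stay visible), and grey bands are the 3 windows left out. Peaks of the female lists gather beyond the Camta1 window, the D2 rows are also dense in the first 5 Mb, and the male row holds 5 peaks.

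Members of the female lists were longer than the other peaks of their list. Their median length was 3596 and 3032 bp at D4, 5071 and 4343 bp at D2, 7254 bp in female and 197 bp in male MEFs. In the 5 female lists this was longer than the median of the remaining peaks of the same list, which was 2792 and 2739 bp at D4, 3913 and 3542 bp at D2 and 5359 bp in female MEFs. The longest member spanned 386 kb, in D2 replicate 1, and members of at least 50 kb numbered 1 and 0 at D4, 6 and 7 at D2, 4 in female MEFs and 0 in male MEFs.

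Median fold enrichment was 2.88 and 2.86 at D4, 2.60 and 2.79 at D2, 2.89 in female and 2.91 in male MEFs. The remaining peaks of the same lists had medians close to these, with 2.81 and 2.85 at D4, 2.61 and 2.80 at D2, 2.90 in female and 2.91 in male MEFs. The highest value was 3.35 and 3.41 at D4, 3.08 and 3.25 at D2, 3.28 in female and 2.92 in male MEFs. These maxima were far below those of the whole lists, which ran from 6.43 in female MEFs to 15.1 in male MEFs. No member had a −log10 q of 3 or more, while 4 to 153 peaks per list did elsewhere or in the windows left out. Members that reached a −log10 q of 2 were 9.30% and 8.33% of members at D4, 11.5% and 5.49% at D2 and 3.60% in female MEFs. Of the remaining peaks, 10.5% and 7.22% did so at D4, 13.3% and 10.5% at D2 and 5.28% in female MEFs. Members were thus about as weakly enriched as most peaks of their lists, and the strongest peaks of each list were not among them.

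Around the start of the stretch, the nearest peaks inside and outside it were as follows. In the D4 lists the first members began 104 and 1334 kb beyond the start, with fold enrichments of 2.83 and 2.98, and the last peaks before it ended 59.5 and 1172 kb short of it, with 2.65 and 2.83. In D2 replicate 1 the first member began 10.7 kb beyond the start (2.48), and the last peak before it ended 17.6 kb short of it (2.39). In D2 replicate 2 these distances were 10.1 and 24.8 kb, with fold enrichments of 2.71 and 2.60. In female MEFs the first member began 48.5 kb beyond the start (2.77), after a peak that ended 6623 kb short of it (3.13). The position of the start thus runs through a group of D2 peaks and beside a large empty stretch in female MEFs.

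Fewer members were called at D4 than at D2, but the gap was smaller than over all autosomes. D4 libraries held 112.5 ± 23.3 members and D2 libraries 182 ± 0 (SD, n = 2 each), a ratio of D4 over D2 of 0.618. The groups did not overlap, and the two-sided exact permutation test gave p = 0.333, the smallest that 2 libraries against 2 allow. The ratio was 0.709 within replicate 1 and 0.527 within replicate 2. Over all autosomes the ratio of peaks was 0.171, with 0.189 within replicate 1 and 0.152 within replicate 2. Covered length was 509 ± 225 kb at D4 and 2146 ± 228 kb at D2 (SD, n = 2 each), a ratio of 0.237 (exact permutation p = 0.333), against 0.102 over all autosomes. The difference between the distal and the autosomal ratio was not tested, since density chose the stretch.

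The direction of this count depended on the length of the lists. With each EpiLC list cut to its 1148 peaks of lowest q, an alternative chosen after seeing the data, D4 libraries kept 106 and 96 members and D2 libraries kept 24 and 23. The ratio was then 4.30 (exact permutation p = 0.333), and the ratio of covered length was 1.01. The cut kept D4 peaks down to a −log10 q of 1.46 and 1.30, and D2 peaks down to 1.98 and 1.88. Among members with a fold enrichment of at least 3, D4 libraries held 26 and 20 and D2 libraries 3 and 16.

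The 3 windows split the stretch into 4 intervals, which differed between the days. From the start to Igsf21, 1.56 Mb, D4 lists held 9 and 2 members, D2 lists 26 and 30, female MEFs 22 and male MEFs 0. Members covered 2.46% and 0.248% of this interval at D4, 42.6% and 32.5% at D2 and 15.9% in female MEFs. Members covered it more than any other interval at D2, by a narrow margin in replicate 2. With peaks that touch a window trimmed to the part outside it, D2 coverage was 44.7% and 32.8% here and 42.2% and 36.5% after Prdm16, so in replicate 2 the order of these intervals turned.

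From Igsf21 to Camta1, 10.6 Mb, D4 lists held 31 and 23 members, D2 lists 105 and 87, female MEFs 27 and male MEFs 4. Coverage was 1.41% and 0.620% at D4, 9.53% and 6.73% at D2 and 1.61% in female MEFs. With peaks that touch a window trimmed, the female MEF value was 3.37% (357 kb, against 170 kb for members), while the EpiLC values moved little or not at all. Per Mb this was the interval with the fewest members in both D2 lists, at 9.91 and 8.21, but by its length it held 57.7% and 47.8% of all members at D2, against 24.0% and 24.0% at D4 and 24.3% in female MEFs.

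From Camta1 to Prdm16, 2.42 Mb, the order of the days by number was the other way. D4 lists held 80 and 58 members, D2 lists 39 and 52, female MEFs 53 and male MEFs 0. The D4 mean was 69.0 ± 15.6 and the D2 mean 45.5 ± 9.19 (SD, n = 2 each), a ratio of 1.52 (exact permutation p = 0.333), with 2.05 within replicate 1 and 1.12 within replicate 2. The interval held 62.0% and 60.4% of D4 members, 21.4% and 28.6% of D2 members and 47.7% of female MEF members. Covered length nevertheless stayed below D2, with 349 and 209 kb at D4, 493 and 511 kb at D2 and 768 kb in female MEFs. D4 peaks were therefore more numerous there and shorter on average, with D2 and female MEF peaks fewer and longer on average. The D2 averages include peaks of up to 90.8 and 101.5 kb, and many D2 peaks there were as short as D4 peaks.

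From Prdm16 to the last peak of any list, 0.792 Mb, D4 lists held 9 and 13 members, D2 lists 12 and 13, female MEFs 9 and male MEFs 1. Numbers of the days overlapped (exact permutation p = 1.0). Covered length was 131 and 71.5 kb at D4, 140 and 252 kb at D2 and 174 kb in female MEFs. The rule drops a peak whole when it touches a window, and a peak of 598 kb over Prdm16 in D2 replicate 1 reached into this interval. With such peaks trimmed to the part outside of the window, D2 coverage was 334 and 289 kb and the D4 and female MEF values were the same.

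**Figure D2:**
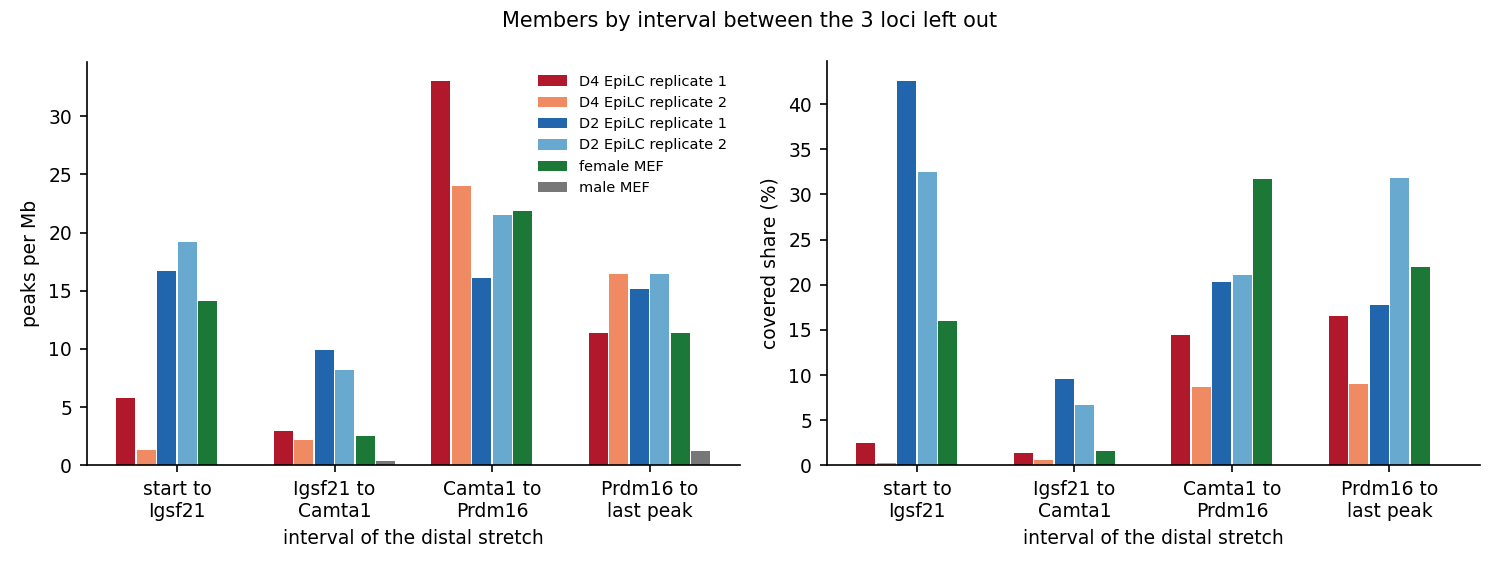
Peaks per Mb (left) and the covered share in % (right) in the 4 intervals, with a bar for each library and no error bars, since each bar is 1 library. Between Camta1 and Prdm16 the D4 bars reach 33.1 and 24.0 peaks per Mb, above 16.1 and 21.5 at D2, while their covered share of 14.4% and 8.63% stays below the 20.4% and 21.1% at D2 and the 31.7% in female MEFs.

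Along bins of 1 Mb, all 5 female lists were dense in the bin that starts at 153 Mb, and the D2 lists were about as dense elsewhere. The windows left out were removed from the length of a bin, and the last bin was 792 kb long, which gave 17 bins. The last bin ended at the last peak of any list, so a peak-free end of the chromosome was not counted. The bin that starts at 153 Mb had the highest mean density of the EpiLC days, with 37.1 ± 13.9 peaks per Mb at D4 and 34.8 ± 12.9 at D2 (SD, n = 2 each). The D2 mean rested on replicate 2, with 43.9, while replicate 1 had 25.8 there, below its 29.0 at 141 Mb and 28.8 at 139 Mb. The densest D2 bin was at 139 Mb with the windows put back and at 141.5 Mb with shifted bins. Female MEFs had 28.8 peaks per Mb there and their maximum of 32.0 in the bin before it. The bin at 153 Mb was also the most covered in all 3 female groups, at 15.8% ± 5.30 at D4, 61.5% ± 0.0686 at D2 (SD, n = 2 each) and 41.8% in female MEFs.

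The bin at 152 Mb set D4 apart from D2. It held 35 and 32 peaks at D4, 16 and 14 at D2, 32 in female MEFs and 0 in male MEFs. Its covered length was 142 and 89.3 kb at D4, 56.2 and 68.4 kb at D2 and 409 kb in female MEFs. Both D4 libraries lay above both D2 libraries on either measure. Of the 17 bins, 14 held an EpiLC peak, and this was the 1 bin with more peaks in both D4 than in both D2 lists. Over all autosomes such bins were 1.55% of 1097 bins with an EpiLC peak. Covered length was higher in both D4 lists in 2 of the 14 bins, at 151 and 152 Mb, against 1.37% over all autosomes, and the excess at 151 Mb was lost when peaks touching the Camta1 window were put back. It was lower in both D4 lists in 12 of the 14 bins, against 74.0% over all autosomes.

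D2 had further maxima that D4 lacked. At 138 Mb, D4 lists covered 0.701% and 0% of the bin, D2 lists 45.8% and 38.0% and female MEFs 10.1%. At 141 Mb, D4 lists held 7 and 9 peaks over 19.4 and 15.8 kb, D2 lists 29 and 27 peaks over 406 and 237 kb and female MEFs 7 over 61.1 kb. At 144 Mb, D4 lists held 0 and 1 peaks, D2 lists 20 and 20, and female MEFs 0. In these bins D2 lay above both other female groups. At 149 Mb, D4 lists covered 3.23 and 0 kb, D2 lists 199 and 202 kb with 5 and 6 peaks, and female MEFs 0 kb. In the bin at 147 Mb, the EpiLC lists had 0 peaks, female MEFs 7 and male MEFs 1.

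**Figure D3:**
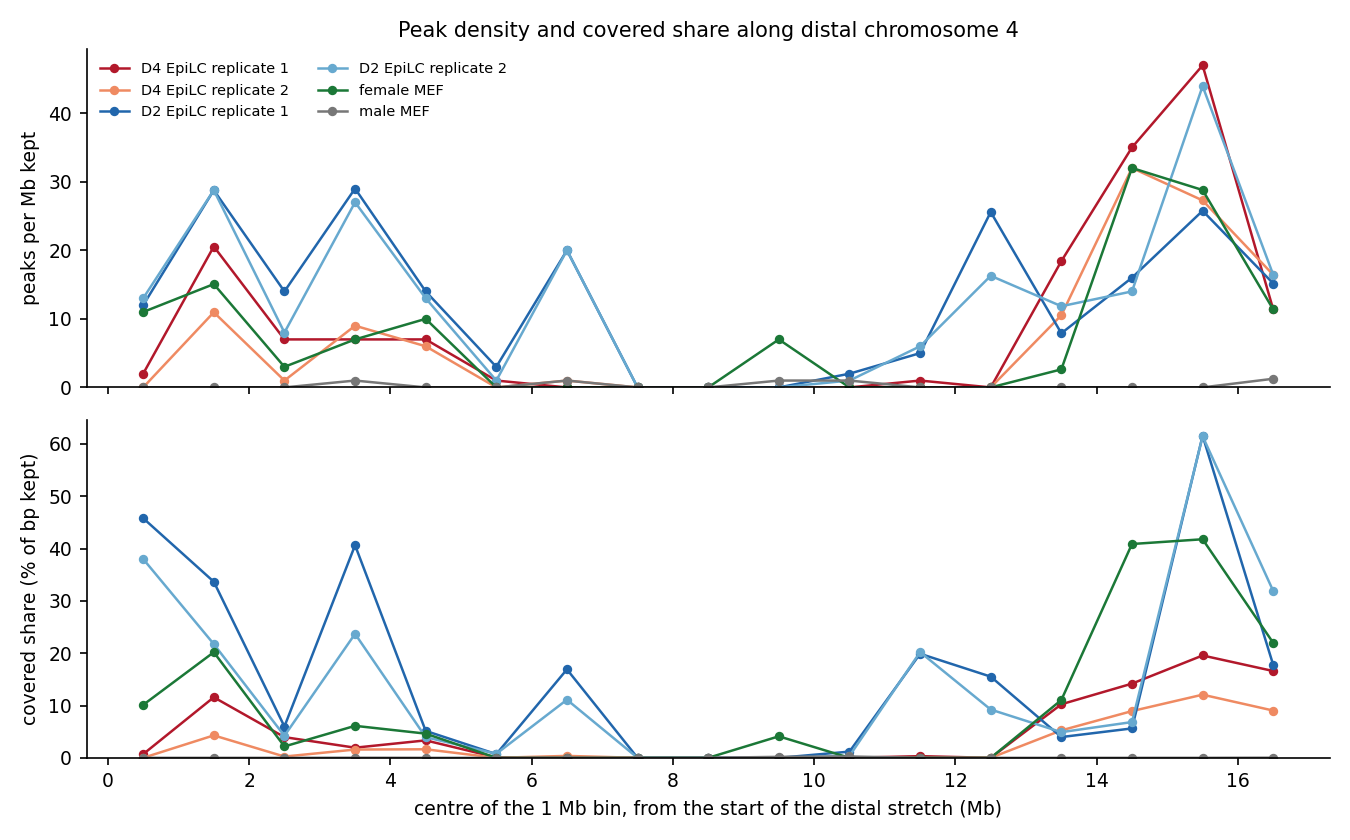
Peaks per Mb of kept length (top) and covered share in % (bottom) in 17 bins of 1 Mb, by the distance of the bin's centre from the start of the stretch in Mb, with a line for each library. All 5 female lines rise beyond the Camta1 window, and at the bin centred 14.5 Mb from the start the D4 and female MEF points lie at 32.0 to 35.0 peaks per Mb, above the D2 points at 14.0 and 16.0.

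The profile of D4 over the bins was closer to that of female MEFs than to that of D2. Pearson's r of the number of peaks over the 17 bins was 0.94 between the D4 replicates, 0.92 between the D2 replicates, 0.87 and 0.90 between D4 and female MEFs, 0.44 to 0.58 between D4 and D2, and 0.44 and 0.51 between D2 and female MEFs. For covered length r was 0.97 and 0.93 between replicates, 0.89 and 0.92 between D4 and female MEFs, and 0.21 to 0.41 between D4 and D2. Spearman's rho of the number of peaks was 0.80 and 0.71 between D4 and female MEFs and 0.64 to 0.81 between D4 and D2, so by ranks of number the pairs overlapped. For covered length rho was 0.88 and 0.81 between D4 and female MEFs and 0.36 to 0.61 between D4 and D2, which did not overlap. Bins of a list share a library, and all lists share the gene content and base composition of a bin, so these values describe the lines in the plot of density by bin.

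A large part of the stretch held no peak. Peak-free bins numbered 6 and 8 at D4, 3 and 3 at D2, 7 in female MEFs and 12 in male MEFs. No female list had a peak in the bins at 145 and 146 Mb. The longest stretch free of peaks in all 6 lists ran over chr4:144943560-147594590, 2651 kb, and was the same in the 5 female lists alone. In both D4 lists together the longest gap was chr4:144784724-149184479 (4400 kb), and in both D2 lists chr4:144943560-148158172 (3215 kb). In female MEFs it was chr4:142608166-147594590 (4986 kb). Whether reads can be mapped uniquely in these gaps was not tested, since the mm9 sequence was not used here. Gaps were taken between peaks, so the end of the chromosome beyond the last peak of a list is not among them. Against the last end of any list, the last peak ended 477 and 476 kb earlier at D4 and 388 kb earlier in female MEFs.

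Peaks lay in blocks, taken as runs of at least 3 peaks of a list with gaps of up to 100 kb, ended by a window left out. D4 lists had 8 and 6 blocks, D2 lists 14 and 15, female MEFs 7 and male MEFs 0. Blocks held 89.1% and 91.7% of members at D4, 94.5% and 93.4% at D2 and 96.4% in female MEFs. The longest block of D4 replicate 2 spanned 1725 kb and that of female MEFs 1748 kb, against 1075 kb in D4 replicate 1 and 833 and 1078 kb at D2.

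The first block of the stretch was found at D2 and in female MEFs. It ran over chr4:138010750-138610276 in D2 replicate 1 and chr4:138010105-138631539 in D2 replicate 2, with 76.4% and 61.1% of its span under peaks. The female MEF block was shorter, at chr4:138048505-138293650 with 41.3% covered. Before Igsf21, blocks lay at chr4:139446924-139550439 in D4 replicate 1, chr4:139086917-139523044 and chr4:139119060-139550742 at D2, and chr4:139250284-139534968 in female MEFs. Beyond Igsf21, D4 lists had blocks of 13 and 7 peaks at chr4:139835583-140080062 and chr4:139850175-140028178, beside D2 blocks of 14 and 6 peaks at chr4:139841596-140309794 and chr4:139832082-140042552. Female MEFs had no block of members there. A female MEF peak that touched the Igsf21 window, and was dropped by the rule, extended 187 kb beyond that window.

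Further along, D2 blocks were larger than D4 blocks. D4 blocks around 141 and 142 Mb held 3 to 5 peaks each. D2 replicate 1 had 30 peaks at chr4:141348189-142181230 and D2 replicate 2 had 26 at chr4:141346409-142005862, with left borders within 10 kb of each other. The female MEF block at chr4:141843914-142608165 held 16 peaks. D2 blocks at chr4:144466900-144912936 (replicate 1) and chr4:149147958-149462732 (replicate 1) and chr4:149139275-149396447 (replicate 2) had no counterpart block at D4 or in female MEFs. A female MEF block at chr4:147594591-147728402, with 7 peaks, had none in the EpiLC lists.

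Between Camta1 and Prdm16 all female lists had a long block with different left borders. At D4 it began at 151772512 in replicate 2, and in replicate 1 it was split into a block of 29 peaks from 151768665 and a block of 47 peaks from 152552012. The borders at 151772512 and 151768665 lay within 10 kb of each other. Before these, D4 replicate 1 had a block of 4 peaks at chr4:151243741-151293529, next to the Camta1 window. The female MEF block ran over chr4:151905972-153653737, with 44.0% of it covered by 53 peaks. D2 blocks began further on, at 152902263 in replicate 1 and 152579410 in replicate 2, after separate blocks at chr4:151866170-152370827 and chr4:151924879-152013274. The right borders, at 153626584 and 153497572 for D4, 153610318 and 153657152 for D2 and 153653737 for female MEFs, precede the Prdm16 window, which ends a block by construction. The border of D4 replicate 2 lies over 100 kb before the window, so that block ended at a gap of its own.

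The block nearest to the chromosome end had right borders that were close within a day, and the D4 borders lay apart from those of D2 and female MEFs. D4 blocks ended at 154335187 and 154335723, D2 blocks at 154438428 and 154438109, and the female MEF block at 154423530. Over all blocks, borders within 10 kb of a border of the other replicate were 4 of 16 and 4 of 12 at D4 and 10 of 28 and 10 of 30 at D2. Between groups at most 2 borders of a list lay that close. Common to the blocks of all 5 female lists were chr4:152902263-153497572 (595 kb), whose right border is that of D4 replicate 2, and chr4:154304417-154335187 (30.8 kb). Blocks of both D4 lists and female MEFs also shared chr4:154034481-154191674 (157 kb), where a block of D2 replicate 2 lay too. D2 replicate 1 had no block of members there, since its peak of 598 kb over Prdm16, which reached beyond that window, was dropped by the rule.

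**Figure D4:**
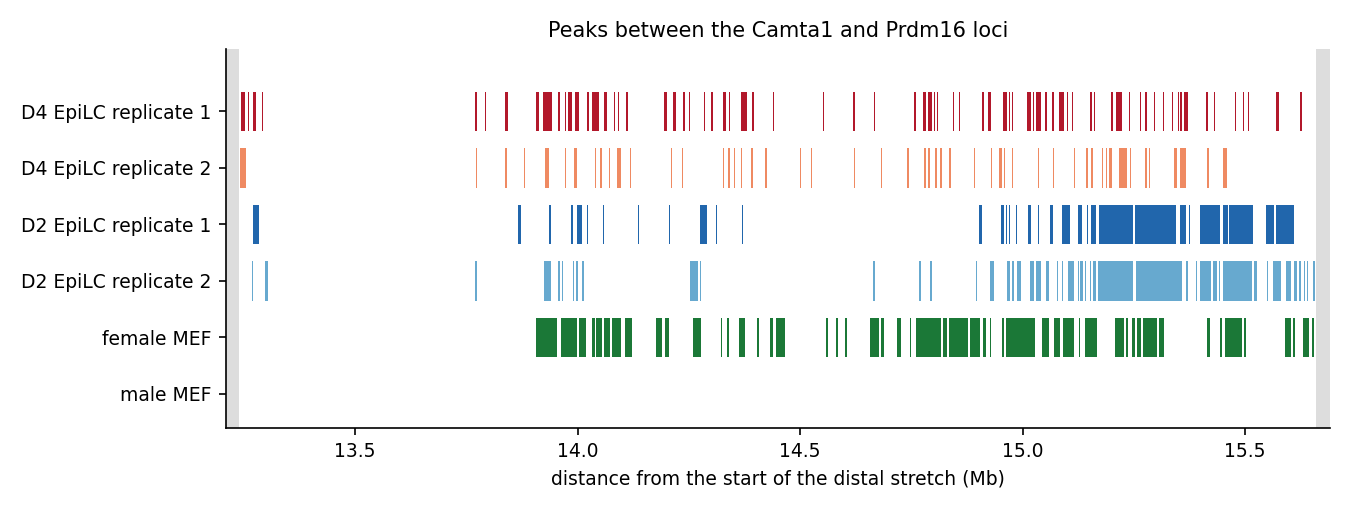
Members between the Camta1 and Prdm16 windows (grey at both edges), with the distance from the start of the stretch in Mb on the x axis and a row for each list, to scale. D4 rows hold 80 and 58 short peaks over the whole of the block, D2 rows hold long peaks beyond 15 Mb, female MEF peaks fill 31.7% of the interval, and the male row is empty.

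Among members, the segments called in all 5 female lists numbered 3, over 12.7 kb in sum, and all lay between Camta1 and Prdm16. All peaks of the autosomes gave 91 such segments. The longest, at chr4:153217363-153224271, had fold enrichments of 3.03 and 2.83 at D4, 2.77 and 2.98 at D2 and 2.81 in female MEFs. At chr4:153275174-153278527 they were 2.75 and 2.93 at D4, 2.73 and 2.96 at D2 and 2.92 in female MEFs. At chr4:153414848-153417279 they were 2.89 and 2.80 at D4, 2.65 and 2.95 at D2 and 2.89 in female MEFs. At the first of these, the peak was 15.3 and 17.9 kb long at D4, 78.2 and 78.2 kb at D2 and 19.6 kb in female MEFs. No male peak overlapped them, against 2.2% of the 91. The count rested on 3 of the EpiLC lists: without D4 replicate 1 it was 12, without D4 replicate 2 it was 20, and without D2 replicate 1 it was 14, while without D2 replicate 2 it was 4. It also rested on the rule, and with the windows put back it was 46. Beyond Prdm16, chr4:154162830-154174009 and chr4:154101186-154111273 lay in peaks of all 5 female lists. They are not among the 3, since the D2 replicate 1 peak of 598 kb touches a window and was dropped.

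Segments covered in both lists of a day (consensus regions) numbered 41 at D4 over 145 kb and 128 at D2 over 1299 kb. The longest D4 consensus region was chr4:154070387-154089093 (18.7 kb), beyond Prdm16, with fold enrichments of 2.91 and 2.98. The next were chr4:154162830-154174009 and chr4:154101186-154111273, and all 3 lay within a D2 peak of each replicate and touched a female MEF peak. The D4 consensus regions at chr4:151927106-151935873 and chr4:151243741-151251747 completed the first 5 by length, and D2 replicate 1 did not call the first of these. The first 5 by rank of fold enrichment all lay between Camta1 and Prdm16. They were chr4:151772512-151773007 (3.06 and 3.20), chr4:152341081-152342300 (3.08 and 3.05), chr4:153197764-153199734 (3.00 and 2.95), chr4:152236944-152237246 (2.89 and 3.26) and chr4:152778883-152781789 (3.01 and 2.92). The regions at 152341081, 152236944 and 152778883 overlapped no D2 peak, and the last of these overlapped a female MEF peak of 55.1 kb.

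The longest D2 consensus region was chr4:138044904-138260017 (215 kb), with fold enrichments of 2.70 and 2.92. A D4 peak was called within it in replicate 1, and a female MEF peak with a fold enrichment of 3.20. The D2 consensus regions chr4:149161469-149329109 (168 kb), chr4:138283555-138376197, chr4:153255633-153344296 and chr4:153170784-153248165 followed. The last 2 overlapped D4 peaks of both replicates and female MEF peaks. By rank of fold enrichment, D2 was led by chr4:141100305-141102943 (3.01 and 3.25), followed by chr4:149382637-149389885 (2.84 and 2.94), chr4:141950619-141952004 (2.73 and 3.07), chr4:153170784-153248165 (2.77 and 2.98) and chr4:141909125-141911700 (2.73 and 2.99). Of these 5 D2 regions, 4 lay between Igsf21 and Camta1.

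In female MEFs the longest members were chr4:154098875-154176738 (77.9 kb), chr4:139430645-139504277 (73.6 kb), chr4:152962997-153027879 (64.9 kb), chr4:152760811-152815897 (55.1 kb) and chr4:151905972-151954246 (48.3 kb). Each of them overlapped a peak of both D4 lists. The highest fold enrichments were at chr4:139425511-139426412 (3.28), chr4:141843914-141846792 (3.24), chr4:153070777-153084814 (3.23), chr4:139396045-139396712 (3.21) and chr4:152175962-152189770 (3.21). The last 2 of these overlapped no EpiLC peak. These 5 peaks were 0.668 to 14.0 kb long, and a longer peak meets an overlap of 1 bp more easily, so the overlaps of both sets of 5 cannot be set against each other.

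Overlap was counted where a region of a list shared at least 1 bp with another list. Of the 41 D4 consensus regions, 21 (51.2%) overlapped a female MEF peak, against 30.1% of the 402 on all autosomes. A D2 consensus region was overlapped by 18 (43.9%), against 68.9%, and a peak of either D2 list by 28 (68.3%), against 83.3%. None overlapped a male peak, against 0.498%. By length, 62.4% of the D4 consensus lay under female MEF peaks, against 43.8%. The shared over the joint length of these sets was 0.0563, against 0.0755. The autosomal values include the 3 windows. With the windows put back into the stretch, the D4 consensus held 98 regions, of which 66 (67.3%) met the D2 consensus and 58 (59.2%) the female MEF list. The share in female MEFs was thus above the autosomal one either way, and the lower share at D2 held only outside of the windows.

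Of the 128 D2 consensus regions, 39 (30.5%) overlapped a female MEF peak, against 6.96% of the 4885 on all autosomes, and 40 (31.3%) overlapped a peak of either D4 list, against 15.6%. A male peak was overlapped by 1, against 1.23%. By length, 26.3% of the D2 consensus lay under female MEF peaks, against 9.47%. Under either D4 list it was 13.2%, against 15.7%, so by length this share was below the autosomal one. Of the 111 female MEF members, 52 (46.8%) overlapped either D4 list, against 23.9%, and 73 (65.8%) overlapped either D2 list, against 45.4%. Seen from the female MEF list, the D2 share was above the D4 share, and the D2 lists covered more of the stretch. A D2 consensus region was overlapped by 48 of the 111 (43.2%), against 26.9%, and a male peak by 0, against 1.67%. Between replicates, the shared over the joint length was 0.166 at D4 and 0.434 at D2, against 0.243 and 0.395 on all autosomes. By number, 30.2% of the members of D4 replicate 1 and 41.7% of those of replicate 2 overlapped the other replicate, against 22.2% and 32.6% on all autosomes. At D2 the shares were 51.6% and 65.9%, against 45.3% and 59.3%. Taken list by list, 53.5% and 55.2% of the members of D4 replicates 1 and 2 overlapped a female MEF peak, against 19.6% and 21.5%. None of these differences from all autosomes was tested, since density chose the stretch. An overlap of 1 bp is also met more easily where peaks are dense or long. Members of the female lists had longer medians than the other peaks of their list.

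**Figure D5:**
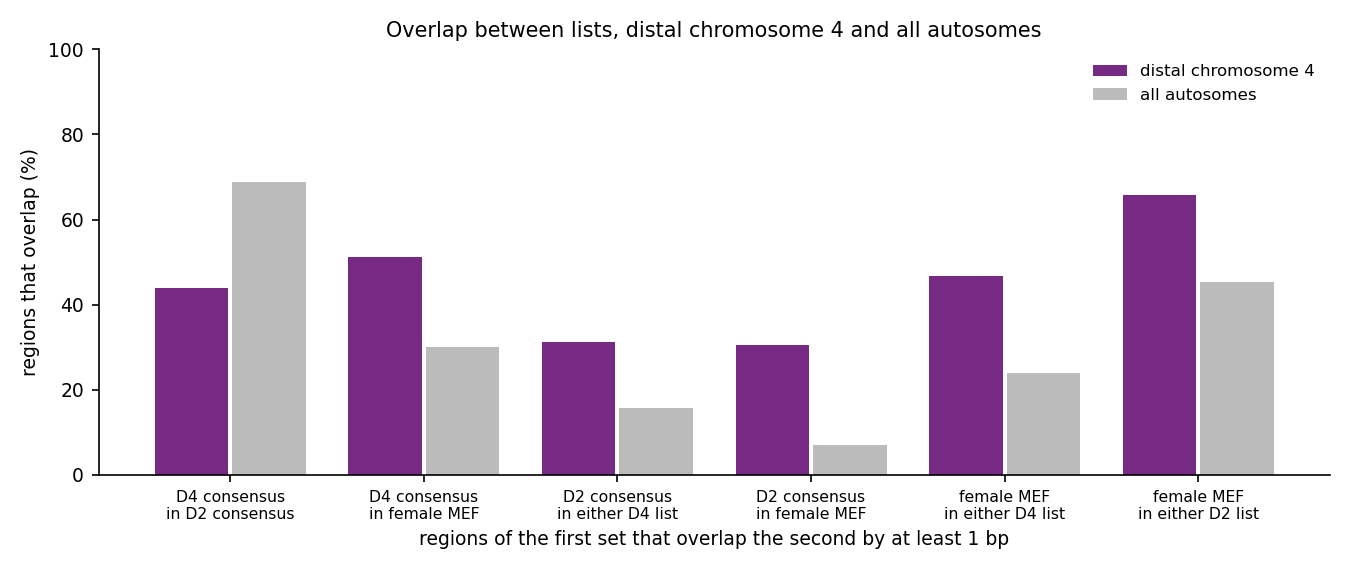
Share in % of regions of a first set that overlap a second set by at least 1 bp, on distal chromosome 4 (purple) and on all autosomes (grey), for 6 pairs of sets. Of D4 consensus regions, 43.9% overlap the D2 consensus on distal chromosome 4 against 68.9% on all autosomes, which include the 3 windows. In the other 5 pairs the purple bar is the higher, in a stretch picked for density, where 1 bp is met more easily. By length, the share of the D2 consensus under either D4 list was instead 13.2%, against 15.7%.

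Members of the 5 female lists, joined where they overlap, formed 276 regions, and a region counted as called in a list where any peak of that list overlapped it. Of these, 142 (51.4%) were called in 1 list only, against 68.8% of the 11753 regions on all autosomes, and 19 (6.88%) in all 5 lists, against 0.570%. Peaks joined in this way need not share a base, and a peak dropped by the rule could count as a call. Joined regions in all 5 lists thus numbered 19 here and 67 on all autosomes. Segments covered in all 5 lists numbered 3 among members and 91 on all autosomes. Regions with at least 1 list each of D4, D2 and female MEFs numbered 37 (13.4%), against 1.17%, and 20 of these lay between Camta1 and Prdm16. Female MEF regions without any EpiLC list numbered 27 (9.78%), against 4.36%. Regions of female MEFs with at least 1 D4 list and no D2 list numbered 14 (5.07%), against 0.349%, and those with at least 1 D2 list and no D4 list numbered 14 (5.07%), against 1.29%. Regions called in both D2 lists and in neither D4 list numbered 43 (15.6%), against 22.5%. They were 7 of 33 joined regions before Igsf21, 31 of 146 between Igsf21 and Camta1 and 2 of 81 between Camta1 and Prdm16.

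Regions called in both D4 lists and in neither D2 list numbered 11 (3.99%), against 0.323% on all autosomes, where there were 38. These shares are of all joined regions. Regions called in 1 D2 list alone were 33.3% of the 276 and 59.6% of the 11753. Shares of patterns with D4 thus also carry the larger part that D4 peaks made up in the stretch. Of the 11, 10 lay between Camta1 and Prdm16, from 151837345 to 152877402, and 1 lay at chr4:142228843-142240832. Female MEFs called 5 of the 11, which is 1.81% of the 276 regions against 0.111% on all autosomes. They lay at chr4:152032899-152054464, chr4:152078276-152097374, chr4:152106312-152122642, chr4:152336654-152342602 and chr4:152833488-152877402. At chr4:152106312-152122642 and chr4:152833488-152877402 the peaks of the D4 replicates shared no base. There the female MEF peak alone joined them into a region, so these regions count as called in both D4 lists only through that peak. At chr4:152336654-152342602 the fold enrichments were 3.08 and 3.05 at D4 and 2.99 in female MEFs. At chr4:152833488-152877402 they were 2.92 and 2.86 at D4, in peaks of 2.46 and 3.97 kb, and 2.87 in female MEFs, in a peak of 43.9 kb. Leaving out D4 replicate 1 gave 26 such regions and leaving out D4 replicate 2 gave 30, since a region then needed a single D4 list, and lists cut to equal number gave 22.

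The 5 male MEF members were chr4:141515732-141515904, chr4:144503510-144503697, chr4:147751644-147753547, chr4:148493022-148495585 and chr4:154052849-154053045, with fold enrichments of 2.87 to 2.92. None overlapped a female MEF peak, against 5.52% of the male list. A peak of D4 replicates 1 and 2 was overlapped by 1 and 0 of the 5, against 4.6% and 2.76% of the male list, and a peak of D2 replicates 1 and 2 by 3 and 2, against 33.1% and 26.4%. The peak at 141515732 overlapped both D2 lists, that at 144503510 overlapped D2 replicate 1, and that at 154052849 overlapped D4 replicate 1 and both D2 lists. The other two overlapped no female peak. Background called in male MEFs thus met the female MEF members nowhere, in a list that held 326 peaks in all.

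No mm9 annotation was used here, so genes were placed by their order between the 3 loci in RefSeq's GRCm38.p6 gene table, a later build, and no gene was assigned to a peak. All 51 genes of 6 lists were found in it. These lists were chosen with the members known and are given as a map of what the stretch contains. Between Igsf21 and Camta1, which held the most D2 members at the lowest D2 density of the 4 intervals, the table held 158 protein-coding genes. Of these, 23 belonged to the Pramel, Pramef and Oog families, tandem genes known for expression in germ cells and early embryos, and 16 had a zinc finger (Zfp) symbol. Spen, the Xist cofactor, lies in this interval, as do Padi1, Padi2, Padi3, Padi4 and Padi6 of the peptidylarginine deiminase family. So do the developmental genes Rere, Epha2, Pdpn and Prdm2, the TNF receptor genes Tnfrsf1b, Tnfrsf8 and Tnfrsf9, and the metabolic or housekeeping genes Eno1, Pgd, Park7, Mtor and H6pd.

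Between Camta1 and Prdm16, where D4 and female MEF peaks were densest, the table held 32 protein-coding genes. They include Hes2 and Hes3, repressors of the Hes family, Trp73, a relative of the tumour suppressor p53, and Ajap1, which encodes a junction-associated membrane protein. Chd5, a chromatin remodeller of the nervous system, Kcnab2, a potassium channel subunit, Nphp4, a gene of the primary cilium, Megf6, Arhgef16 and the TNF receptor gene Tnfrsf25 lie there as well. None of the Pramel, Pramef, Oog or Zfp genes do. After Prdm16 the table held 57 protein-coding genes, among them Hes5, a Notch target, and Ski, a repressor of TGF-beta signalling. Others there are Dvl1 of the Wnt pathway, Agrn, Isg15, Mib2, Prkcz, Gabrd, Plch2, Pank4, Mmel1, Gnb1, Nadk, Tnfrsf4, Tnfrsf14 and Tnfrsf18. Pax7, Wnt4, Hspg2, Epha8, Cdc42, Ubr4 and Capzb precede Igsf21, and which of them lie beyond the start of the stretch was not determined.

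Promoters beyond Camta1 held more CG dinucleotides. In RefSeq's windows of 300 bases around gene starts on GRCm38.p6, the median number of the letters CG, which read the same on both strands, was 21.0 between Camta1 and Prdm16 (40 promoters), 22.0 after Prdm16 (63) and 8.50 between Igsf21 and Camta1 (174). The median over all promoters of the table was 13.0. Windows with at least 15 CG were 67.5%, 57.1% and 39.1% of the promoters of these intervals in the same order, against 46.8% of all promoters. The interval between Camta1 and Prdm16 thus had more CG at its promoters than that between Igsf21 and Camta1. It also held more peaks per Mb at D4 (33.1 and 24.0, against 2.92 and 2.17) and at D2 (16.1 and 21.5, against 9.91 and 8.21). After Prdm16 the median CG was higher still, yet each EpiLC list held fewer peaks per Mb than between Camta1 and Prdm16. The values were 11.4 and 16.4 at D4 and 15.2 and 16.4 at D2. These densities stop at the last peak of any list. The promoters after Prdm16 were not cut at that peak, so the spans may differ. Promoters before Igsf21 were not counted. Whether peaks lie at the counted promoters was not tested.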

How the data were processed

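Broad-peak lists of 6 Xist pulldowns were analysed, 1 list per library. No input was analysed on its own. The submitters' processing notes name MACS2 2.2.7.1, Bowtie2 2.2.9, Trim Galore 0.4.1, bedtools 2.26.0, SAMtools 1.9 and Picard, with the build mm9 and without settings. Fold enrichment, as deposited, is the ratio of pulldown to the background that the peak caller set. The peak caller's −log10 p and −log10 q were taken as deposited, and the deposited score was left aside. The sources used here do not say whether reads were pooled before calling. Coordinates are on mm9, counted from 1.

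The members and all gene lists were chosen with earlier results of these data known. Members, merged lengths, bins, blocks and overlaps were computed with Python 3.11.15, numpy 2.4.6 and pandas 2.3.3, by functions tested on simulated data. D4 and D2 were compared by a two-sided exact permutation test over libraries. Regions named in the text are the 5 longest and the 5 first by rank of fold enrichment of each consensus and of the female MEF list, every segment called in all 5 female lists, every male peak and, for blocks, those with the most covered length. The regions called in both D4 lists and in neither D2 list, the smaller blocks and the bins discussed singly were chosen after their values were seen. Sequences under peaks are not reported, since the mm9 genome was not used here.

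The labels state for replicate 1 of both days that it re-analyses earlier data, so the number was taken to mark 2 data sets and thereby to pair the D4 with the D2 libraries. Over the 17 bins, the difference between replicates at D4 and at D2 correlated at r = -0.33 for covered length and -0.55 for the number of peaks, so the data do not show such a pairing.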

Additional observations from a re-analysis of the deposited data

How the results depend on the processing

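The ratios of D4 over D2 kept their direction under −log10 q of at least 2, with the windows put back, with the start at 140 Mb, without any 1 EpiLC replicate and with peaks trimmed at the windows, but not in 3 cases. The ratio of peaks was 2.42 at a fold enrichment of at least 3 (23.0 against 9.50 members) and 4.30 with lists cut to equal number, and the ratio of covered length was 1.01 with lists cut to equal number. With the replicate block, the pairing by replicate number, the ratios were 0.611 and 0.226 (exact permutation p = 0.5 for both, the smallest that 2 pairs allow), and crossed pairing gave the same ratios. The equal-number ratios, the trimming, the crossed pairing and the alternatives for regions of D4 alone were chosen after seeing the data.

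At a −log10 q of at least 2, the 3 overlap shares were each 0%, of 1 region, segments in all 5 female lists numbered 0, and blocks numbered 1 at D4, 0 at D2 and 0 in female MEFs. The first bin was then at 152 Mb by coverage at D4, 154 Mb by either measure at D2 and 139 Mb by density in female MEFs. At a fold enrichment of at least 3, the shares were 0% (of 2, 2 and 1 regions), segments numbered 0 and blocks 5, 1 and 2, with the first bin at 152 Mb by either measure at D4 and 154 Mb by coverage at D2. A −log10 q of at least 3 left 0 members and gave no values. With the windows put back, the D4 consensus overlapped the D2 consensus at 67.3%, the D2 consensus overlapped female MEFs at 42.0%, segments numbered 46, and the first bin was at 139 Mb by density at D2 and by coverage in female MEFs. With lists cut to equal number, these shares were 20.0% and 0% (of 1 region), segments numbered 0 and regions of both D4 and neither D2 list 22. An overlap of at least 50% of the region gave 21.9% for D2 in female MEFs. Gaps of up to 50 kb gave 12 female MEF blocks, and shifted bins put the densest D2 bin at 141.5 Mb. Leaving out 1 replicate, segments ranged from 4 to 20 and regions of both D4 and neither D2 list from 14 to 30. In the share of D4 consensus regions in female MEFs, the range was 53.5% to 55.2%. The cause was not tested, except that a stricter threshold or equal number keeps fewer regions by construction. Gene counts under segments were not run, since no mm9 annotation was used. Depth is unknown, so weak members cannot be told apart from missed ones.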
